A study of Homo sapiens with 6 samples.

Results

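The 42 genes described here encode glucose transporters and enzymes of glycolysis, the pentose phosphate pathway, the pyruvate dehydrogenase complex and the tricarboxylic acid (TCA) cycle. The rule that chose them names the genes and uses no measured value, although earlier results of these data were known when the list was drawn up, and 40 of them were matched to a probe set among 17687 named genes. PFKFB4 and FH are not analysed here. The 40 genes were divided into 6 arms, with 2 genes of glucose uptake, 10 of upper glycolysis, 8 of lower glycolysis and lactate formation, 6 of the pentose phosphate pathway, 4 of pyruvate dehydrogenase and its control, and 10 of the TCA cycle.

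Glycolysis splits glucose into pyruvate in the cytosol with a net gain of ATP and NADH, and lactate dehydrogenase returns the NADH to its oxidized form by reducing pyruvate. The pentose phosphate pathway branches off at glucose 6-phosphate and supplies NADPH and ribose 5-phosphate. Pyruvate that enters the mitochondrion is turned into acetyl-CoA by pyruvate dehydrogenase and oxidized in the TCA cycle, whose NADH feeds respiration. Neuroblastoma cells in culture, like many tumour cells, take up glucose and release lactate in the presence of oxygen.

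Expression was measured in SH-SY5Y, an established human neuroblastoma line of sympathetic origin, on 1-colour Affymetrix whole-transcript arrays. The 6 arrays fall into 2 groups of 3, labelled 15EN and VC (vehicle control), and replicates 1, 2 and 3 of each group come from passages 33, 34 and 35 by their titles, although all descriptions give passage 33. A treatment text common to all samples names differentiation with atRA (all-trans retinoic acid), a span of 96 h and a bioactive compound at 15 µM. The name 15EN is not spelled out in the labels, and the title of the series speaks of eurycomanone, which is isolated from Eurycoma longifolia roots. Both groups therefore share the cell line and, by that text, the retinoic acid, and the data hold no undifferentiated cells and no other dose.

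The values are log2 signals, whose medians over genes lay between 7.60 and 7.71 in the 6 arrays. The 90th percentile of 612 negative control probe sets, 7.41 to 7.99 per array, served to call a signal dim, which does not mean undetected. Pearson's r over all probe sets was 0.990 to 0.992 between VC arrays and 0.992 between 15EN replicates 1 and 2, but 0.979 and 0.980 between these and 15EN replicate 3. Since 15EN replicate 3 stands apart, the calls it changed and several other values are also given without it. Of 9 measured markers of sympathetic neuroblasts, 6 were above that percentile in all arrays. A different 6 were lower in 15EN, where 9.09% of all genes were. They were PHOX2A, ISL1, STMN2, ELAVL4, DBH (dim in some 15EN arrays) and CHGA (dim in all arrays). HAND2 (0.09), GATA3 (0.07) and CHGB (-0.46) did not pass. The summed signal (log2) of the 9 was 15.54 to 15.76 in 15EN and 16.45 to 16.94 in VC. Of 7 fibroblast markers, 4 were above that percentile in all arrays and 2 were lower in 15EN (COL1A1 and THY1). Their summed signal was 13.71 to 14.26 in 15EN and 14.02 to 14.15 in VC. All 5 Schwann cell and glia markers were dim in every array. The part of these marker shifts in the results below was not tested, and in such bulk RNA fewer cells of a type and less RNA per cell cannot be told apart.

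**Figure D1:**
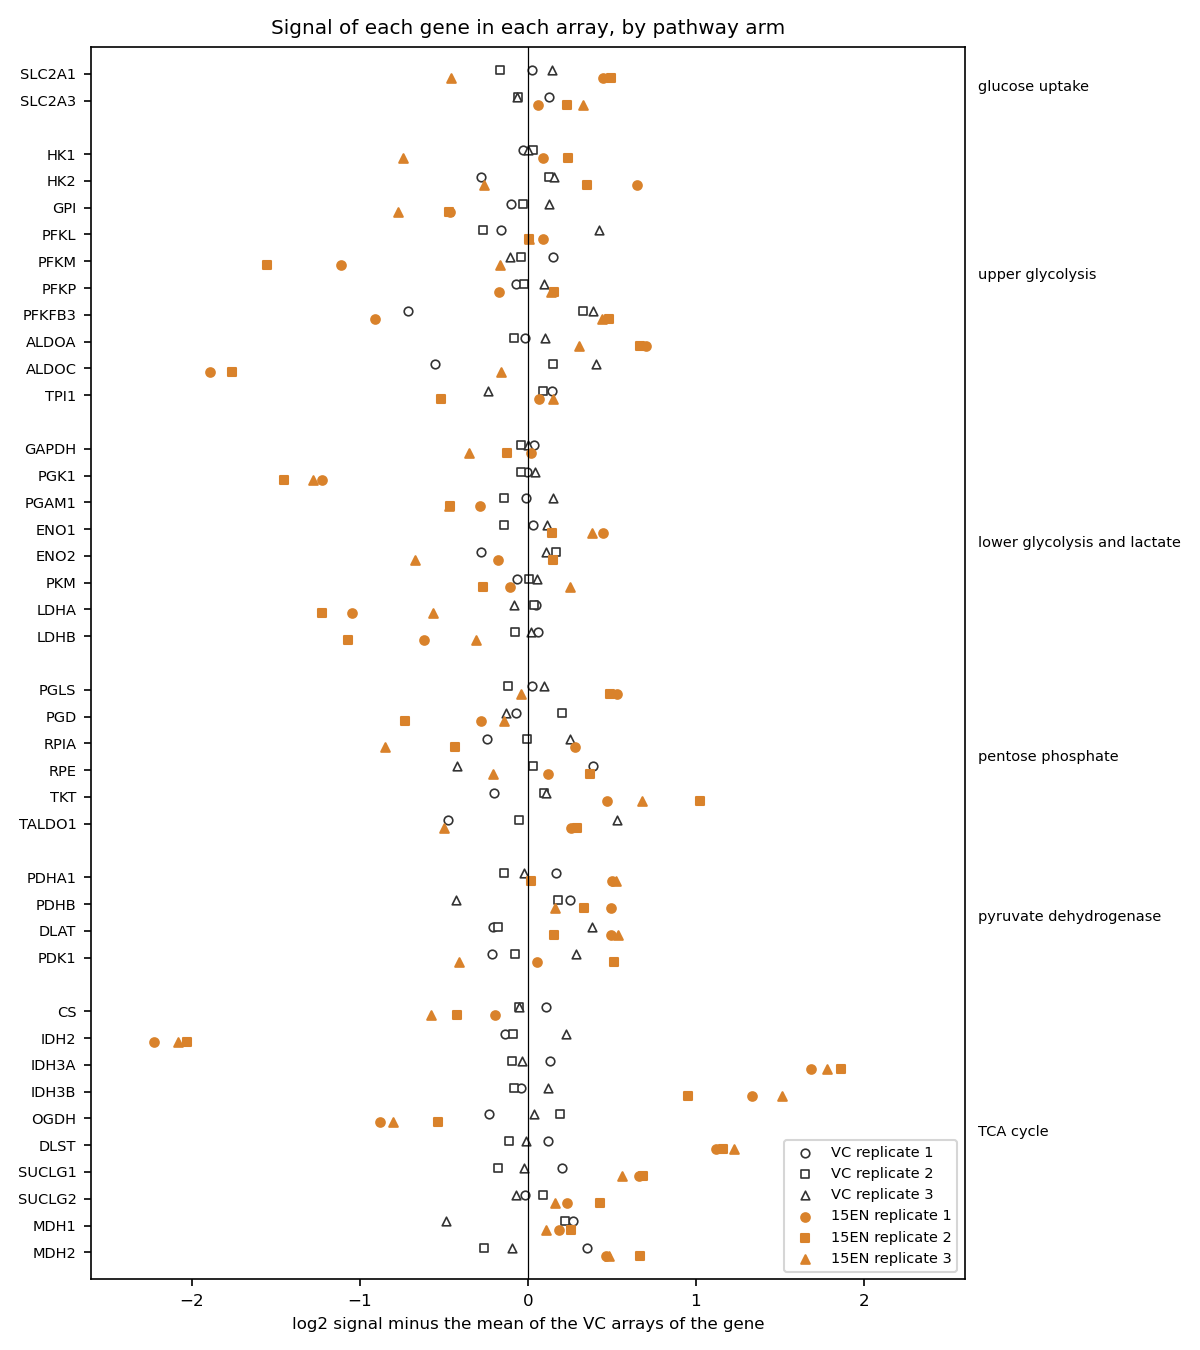
Each row is a gene, grouped by pathway arm, and each point an array, plotted as its log2 signal minus the mean of the 3 VC arrays of that gene (white VC, orange 15EN, with a shape for each replicate). IDH2, PGK1, LDHA and OGDH lie to the left of all VC arrays and IDH3A, IDH3B, DLST and TKT to the right in the values as deposited, while in ALDOC, PFKM, HK1 and SLC2A1 the triangle of 15EN replicate 3 lies away from the other 15EN arrays.

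The 15EN arrays were compared with the VC arrays to ask which steps of central carbon metabolism differ in transcript level. The 2 changes of largest size among the 40 genes were in the TCA cycle, and they ran in opposite directions. IDH3A and IDH3B, subunits of the NAD-linked isocitrate dehydrogenase, rose 3.42-fold and 2.40-fold, and DLST, a subunit of the 2-oxoglutarate dehydrogenase complex, rose 2.25-fold. The NADP-linked mitochondrial isocitrate dehydrogenase IDH2 was 4.33-fold lower and OGDH, the first subunit of the 2-oxoglutarate dehydrogenase complex, 1.67-fold lower. In glycolysis PGK1 was 2.49-fold and LDHA 1.93-fold lower, and in the pentose phosphate pathway TKT was 1.65-fold higher. In all, 4 of 40 genes were higher and 4 lower at an adjusted p under 0.05 (limma with Benjamini-Hochberg adjustment over all genes).

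These shares, 10% higher and 10% lower, were near the 12.3% higher and 9.09% lower among all 17687 genes. The median log2 difference over the 40 genes was 0.04, against 0.01 over all genes. Neither value sets the 40 genes apart, and the results below are about single genes. Directions are relative to the median gene. Scaling of all arrays to the same level of hybridization controls raised each log2 difference by 0.87 and the median over all genes to 0.88, so that 26 of the 40 genes passed as higher and 1 as lower, against 12150 higher and 437 lower of all genes. Without 15EN replicate 3, 6 genes were higher and 7 lower, where 18.2% of all genes were higher and 12.7% lower.

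The arrays of the groups did not overlap for 19 of the 40 genes (47.5%), against 36.3% of all genes. By arm this was the case for 9 of 10 genes of the TCA cycle, 5 of 8 of lower glycolysis, 3 of 10 of upper glycolysis, 2 of 6 of the pentose phosphate pathway, and 0 of 4 and 0 of 2 of pyruvate dehydrogenase and glucose uptake. Among other measured genes of the same pathways, outside the 40, it was 7 of 18 around the TCA cycle (38.9%). In lower glycolysis it was 3 of 11 of these (27.3%), of which 8 of 11 were dim in all arrays. The counts of the listed genes therefore do not describe these arms at large.

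**Figure D2:**
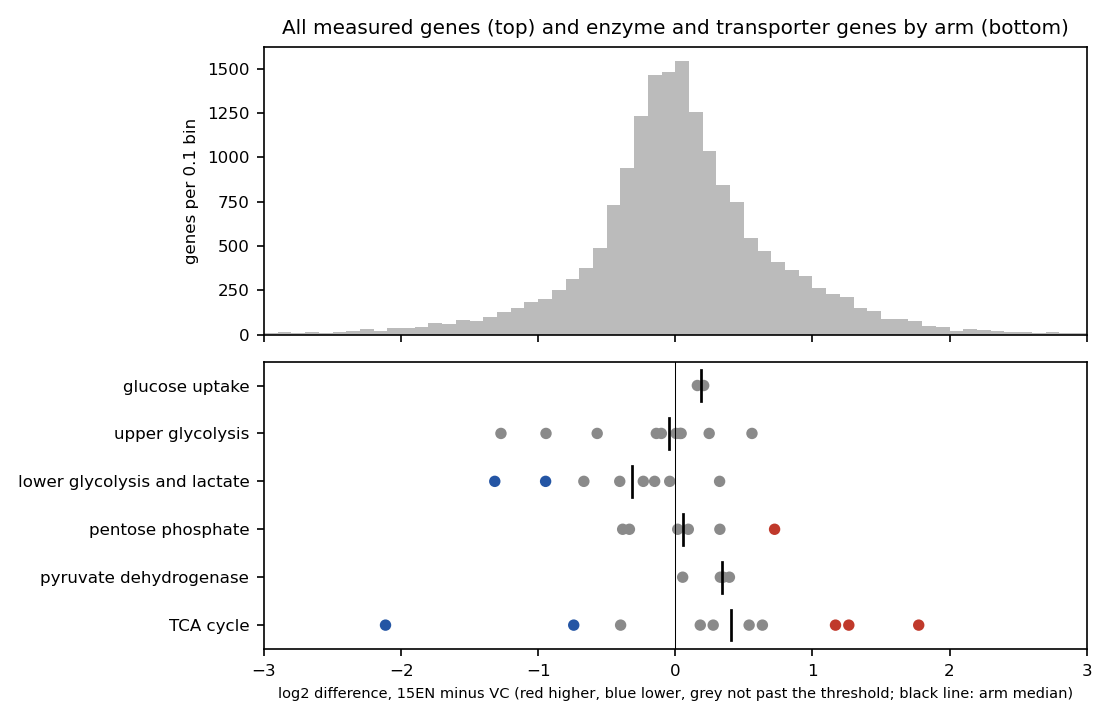
The upper panel counts all 17687 genes by their log2 difference, 15EN minus VC, in bins of 0.1 (the axis is cut at 3 on either side), and the lower panel shows the 40 genes by arm with a black line at each arm's median. The TCA arm spreads from -2.11 to 1.78 with a median of 0.41, lower glycolysis has a median of -0.32, and the other arms have medians between -0.05 and 0.34.

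Glucose uptake showed 0 called genes of 2 by limma, where 12.3% of all genes were higher and 9.09% lower. It also showed 0 at an unadjusted p under 0.05, which 32.2% of all genes reached. SLC2A1 encodes GLUT1, the main glucose transporter of most cultured cells, and 15EN replicates 1, 2 and 3 had log2 signals of 11.40, 11.44 and 10.49, beside 10.97, 10.78 and 11.09 in VC. The first pair of 15EN arrays lay above all VC arrays and 15EN replicate 3 below them, for a difference of 0.16 ± 0.28 (SE, 95% interval -0.46 to 0.78, limma adjusted p = 0.76), or 0.47 ± 0.20 without that array (adjusted p = 0.111). SLC2A3, the neuronal transporter GLUT3, was dim in all arrays (3.96 to 4.35) and differed by 0.21 ± 0.20 (limma adjusted p = 0.55).

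In upper glycolysis 0 of 10 genes passed by limma with the group only, where 12.3% of all genes were higher and 9.09% lower, and the median difference was -0.05. At an unadjusted p under 0.05 were 4 of the 10 (GPI, PFKM, ALDOA and ALDOC), against 32.2% of all genes. When limma also blocked arrays by replicate number, PFKM (adjusted p = 0.0421) and ALDOC (0.00847) passed as lower. In that fit 2415 of all 17687 genes were higher and 1788 lower. The hexokinases, which trap glucose as its phosphate, gave -0.14 ± 0.27 for HK1 and 0.25 ± 0.27 for HK2. HK1 was 10.61 and 10.76 in 15EN replicates 1 and 2, above VC at 10.49 to 10.55, and 9.78 in replicate 3, below it. Without that array HK1 gave 0.16 ± 0.20 (limma adjusted p = 0.581) and HK2 0.50 ± 0.22 (0.121), neither past the threshold. GPI, which converts glucose 6-phosphate to fructose 6-phosphate, was lower in each 15EN array (12.88, 12.88 and 12.58) than in each VC array (13.25, 13.32 and 13.48). This difference of -0.57 ± 0.21 missed the threshold (limma adjusted p = 0.0784). It passed with a trended robust prior (adjusted p = 0.0478), when a loess trend on brightness was taken out (-0.71, 0.0333) or when arrays were quantile normalized (-0.69, 0.0333). With any single array left out GPI did not pass (limma adjusted p from 0.105 to 0.233). Scaled to the hybridization controls its difference was 0.30 (0.253).

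Phosphofructokinase commits glucose to glycolysis, and 0 of its 3 subunit genes passed. PFKM, the muscle-type subunit, was 10.67, 10.23 and 11.61 in 15EN and 11.93, 11.74 and 11.67 in VC. All 15EN arrays were lower, but replicate 3 by only a small margin. The difference of -0.94 ± 0.32 had an adjusted p of 0.0634 by limma. It passed without 15EN replicate 3 (-1.33 ± 0.22, adjusted p = 0.00108), when arrays were blocked by replicate number (0.0421), when the dimmest tercile of genes was left out (0.0493) and with the brightness trend taken out (0.0334). With any other array left out PFKM did not pass (limma adjusted p from 0.137 to 0.216). Scaled to the hybridization controls its difference was -0.07 (0.848). PFKP, the platelet-type subunit, was at 14.51 to 14.84 in 15EN and 14.61 to 14.77 in VC, with a difference of 0.04 (95% interval -0.41 to 0.50). PFKL, the liver-type subunit, differed by 0.03 (95% interval -0.49 to 0.55). Taken within each array, PFKP minus PFKM was 0.94, 1.71 and 0.31 above its VC mean in 15EN replicates 1, 2 and 3, against -0.22 to 0.20 in VC.

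PFKFB3 makes fructose 2,6-bisphosphate, the activator of phosphofructokinase. Its signal was 9.68, 11.08 and 11.03 in 15EN and 9.88, 10.92 and 10.98 in VC. Both arrays of passage 33 were low and those of passages 34 and 35 high, whichever the group, and the group difference was 0.01 ± 0.41.

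The aldolases split fructose 1,6-bisphosphate, and the ubiquitous and the brain-type enzyme differed in opposite directions without passing the test. ALDOA was 15.21, 15.18 and 14.82 in 15EN and 14.49, 14.43 and 14.61 in VC, so that every 15EN array was higher (0.56 ± 0.21, limma adjusted p = 0.0889, and 0.69 with adjusted p = 0.0227 without 15EN replicate 3). It also passed with a trended robust prior (0.0391) and after scaling to the hybridization controls (1.43, 0.000426). With any other array left out ALDOA did not pass (limma adjusted p from 0.16 to 0.243). ALDOC was 6.76, 6.89 and 8.49 in 15EN and 8.10, 8.80 and 9.06 in VC. Here 15EN replicates 1 and 2 were below the VC arrays, and dim, while replicate 3 lay inside the VC range. The difference of -1.27 ± 0.44 (limma adjusted p = 0.0632) was -1.83 ± 0.28 without 15EN replicate 3 (adjusted p = 0.00069), and the gene also passed when arrays were blocked by replicate number (0.00847) and when the dimmest tercile was left out (0.0497). With any other array left out ALDOC did not pass (limma adjusted p from 0.0658 to 0.22). Scaled to the hybridization controls its difference was -0.40 (0.43). TPI1, triosephosphate isomerase, gave -0.10 ± 0.24, and 0.77 after scaling to the hybridization controls.

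Lower glycolysis and lactate formation had 2 genes that fell and 0 that rose among 8 (25% and 0%, against 9.09% and 12.3% of all genes). In this arm 7 of the 8 differences were negative as deposited, against 17 of all 40, where the median over all genes was 0.01. The 7 include PKM (-0.04), GAPDH (-0.15) and ENO2 (-0.23, dim in all arrays). Scaled to the hybridization controls, only PGK1 (-0.45) and LDHA (-0.08) stayed negative in this arm. PGK1 encodes phosphoglycerate kinase, the first ATP-forming step, and LDHA the A subunit of lactate dehydrogenase. The bases before their RefSeq starts (GRCh38.p14) are shown because these are the genes of glycolysis that fell, at chrX:78103998-78104247 on the plus strand for PGK1 and chr11:18394313-18394562 on the plus strand for LDHA. Capitals mark ACGTG, the core letters of hypoxia response elements, on either strand.
PGK1: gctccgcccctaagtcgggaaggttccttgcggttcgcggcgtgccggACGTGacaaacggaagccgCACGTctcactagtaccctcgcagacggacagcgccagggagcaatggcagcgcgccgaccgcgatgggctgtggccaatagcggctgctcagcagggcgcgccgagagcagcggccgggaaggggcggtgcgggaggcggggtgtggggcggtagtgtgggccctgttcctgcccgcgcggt
LDHA: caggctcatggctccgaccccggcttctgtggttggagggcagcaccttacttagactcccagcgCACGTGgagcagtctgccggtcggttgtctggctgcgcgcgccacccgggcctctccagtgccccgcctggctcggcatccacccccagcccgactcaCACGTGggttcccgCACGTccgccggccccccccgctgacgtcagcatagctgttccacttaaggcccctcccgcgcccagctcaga
PGK1 holds ACGTG at 2 places in these 250 bases and LDHA at 3, of which 2 are the E-box CACGTG, whose letters hold ACGTG on both strands. ACGTG was present in 18.5% of 35116 RefSeq promoters and in 11 of the 38 measured genes with such an entry (2 of 7 called and 9 of 31 not called), and CACGTG in 6.34% of promoters. The shares over promoters count every entry of a gene, and the counts over the 38 genes only the first entry. These matches describe letters, and binding was not measured.

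PGK1 was 10.91, 10.68 and 10.86 in 15EN and 12.13, 12.09 and 12.18 in VC. The 15EN arrays all lay more than a full log2 unit below the lowest VC array, and each group was tight. The log2 signal fell from 12.13 ± 0.04 to 10.82 ± 0.12 (SD, n = 3), a difference of -1.32 ± 0.20 (SE, limma adjusted p = 0.0014). The call held without any single array, and was lost only after scaling to the hybridization controls (-0.45, adjusted p = 0.0945).

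LDHA was 11.80, 11.63 and 12.29 in 15EN and 12.90, 12.89 and 12.77 in VC. Replicate 3 was the 15EN array nearest to VC, and the groups did not overlap. The difference was -0.95 ± 0.23 (limma adjusted p = 0.0149). Scaled to the hybridization controls it was -0.08 (adjusted p = 0.794). It also no longer passed without 15EN replicate 1 (0.0532), 15EN replicate 2 (0.0587), VC replicate 1 (0.057) or VC replicate 2 (0.0639).

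LDHB encodes the B subunit of the same enzyme and was also lower in every 15EN array, at 13.81, 13.36 and 14.12 against 14.49, 14.35 and 14.45. Its difference of -0.67 ± 0.24 missed the threshold (limma adjusted p = 0.0735), and passed without 15EN replicate 3 (-0.85, adjusted p = 0.0123), with the brightness trend taken out (-0.79, 0.0401) and with a trended robust prior (0.0396). With any other array left out LDHB did not pass (limma adjusted p from 0.138 to 0.236). Scaled to the hybridization controls its difference was 0.20 (0.496). Within arrays, LDHA minus LDHB was 0.43, 0.15 and 0.26 below its VC mean in 15EN replicates 1, 2 and 3, and between -0.10 and 0.11 of that mean in VC.

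GAPDH, the dehydrogenase one step before PGK1 and a common reference gene, was 17.29, 17.15 and 16.92 in 15EN and 17.31, 17.23 and 17.27 in VC. It differed by -0.15 ± 0.20 (95% interval -0.60 to 0.30, limma adjusted p = 0.686) as deposited, and by 0.72 (adjusted p = 0.0153) after scaling to the hybridization controls. Its signal lay near the top of the table, where the highest value of any probe set was 18.82. PGK1 minus GAPDH within arrays was 1.24, 1.33 and 0.93 below its VC mean in 15EN replicates 1, 2 and 3, and between -0.04 and 0.04 of it in VC, a contrast that a constant added to an array cannot move. The pair was chosen after the values were seen and carries no test.

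Of the remaining genes, PGAM1, phosphoglycerate mutase, was at 13.37 to 13.56 in 15EN and 13.70 to 13.99 in VC (-0.41 ± 0.20, limma adjusted p = 0.202). ENO1, the ubiquitous enolase, was the gene of this arm with a positive difference, at 15.88 to 16.18 in 15EN and 15.59 to 15.85 in VC (0.32 ± 0.21, limma adjusted p = 0.328). Neither gene's groups overlapped, and neither passed. ENO2, the neuronal enolase, was dim in all arrays (-0.23 ± 0.26). PKM, pyruvate kinase, gave -0.04 (95% interval -0.52 to 0.44), and 0.83 after scaling to the hybridization controls. Processed pseudogenes of GAPDH, PGK1, LDHA, PGAM1 and other glycolytic genes resemble their parents closely, so their signals are uncertain to that extent.

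**Figure D3:**
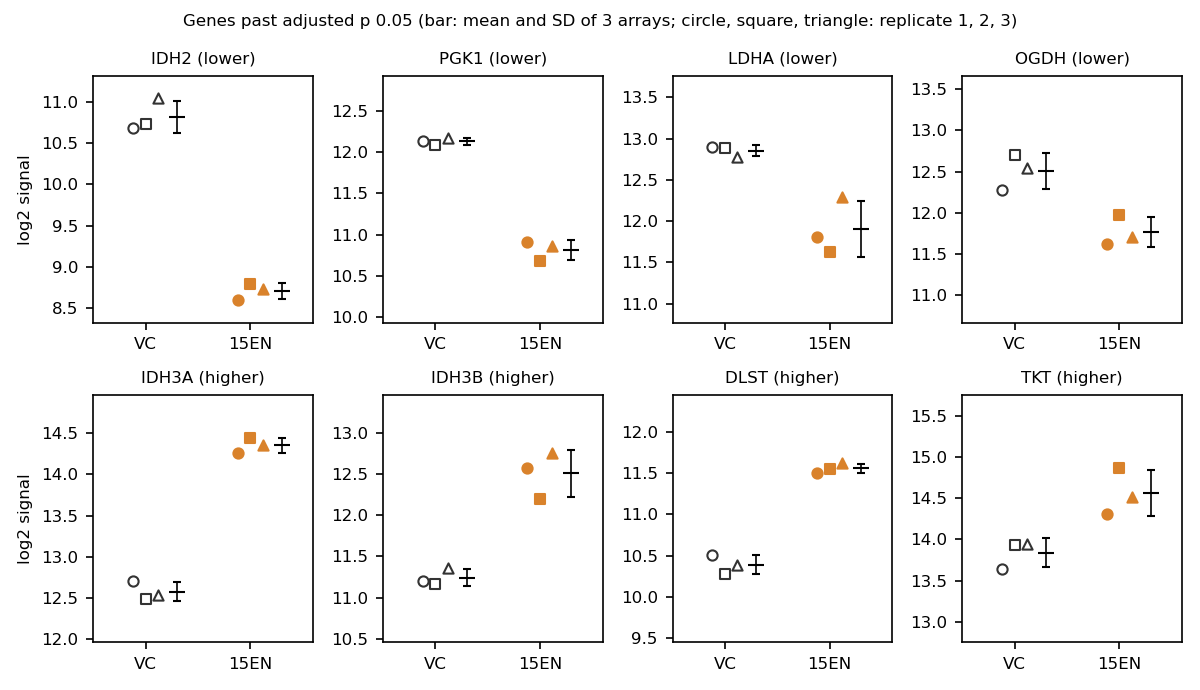
Each panel shows a gene past an adjusted p of 0.05, with its log2 signal in the 3 VC arrays (white) and the 3 15EN arrays (orange) and the mean with SD at the side, and every vertical axis spans 3 log2 units. In all 8 genes the 15EN arrays lie wholly below (upper row) or above (lower row) the VC arrays as deposited. Scaled to the hybridization controls, PGK1 (-0.45), LDHA (-0.08) and OGDH (0.13) no longer pass.

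In the pentose phosphate pathway 1 of 6 genes was called, as higher (16.7%, against 12.3% of all genes). TKT, transketolase, passes carbon between the pathway and glycolysis. Its signal was 14.31, 14.86 and 14.52 in 15EN and 13.64, 13.93 and 13.95 in VC, higher in every 15EN array, with 15EN replicate 2 the highest. It rose by 0.72 ± 0.23 (limma adjusted p = 0.0441). The call was lost without 15EN replicate 2 (0.58, adjusted p = 0.151), VC replicate 1 (0.62, 0.157), VC replicate 2 (0.105) or VC replicate 3 (0.0967), in quantile normalized data (0.66, 0.054) and with the brightness trend taken out (0.61, 0.0868).

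TALDO1, transaldolase, which works beside transketolase, was dim in VC and differed by 0.02 ± 0.31, with a 95% interval of -0.67 to 0.71 (0.28 ± 0.28 without 15EN replicate 3). The oxidative branch, which makes NADPH, was represented by PGLS (0.32 ± 0.23, and 0.51 ± 0.20 without 15EN replicate 3) and PGD (-0.38 ± 0.23). PGD, phosphogluconate dehydrogenase, was at 10.55 to 11.14 in 15EN, all below the VC arrays at 11.15 to 11.48, and 15EN replicate 3 only just so. RPIA and RPE, which interconvert the pentose phosphates, gave -0.33 ± 0.29 (-0.08 ± 0.26 without 15EN replicate 3) and 0.09 ± 0.26. RPIA was dim in all VC arrays and in some 15EN arrays, and the RPE signal may include its close copy RPEL1. None of these genes other than TKT passed.

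The pyruvate dehydrogenase complex showed positive differences of up to 0.39. By limma 0 of 4 genes were called, where 12.3% of all genes were higher and 9.09% lower. At an unadjusted p under 0.05 were also 0, against 32.2% of all genes. PDHA1 and PDHB, the subunits of its first enzyme, gave 0.35 ± 0.23 and 0.33 ± 0.24, and DLAT, its acetyltransferase core, 0.39 ± 0.24. PDK1, a kinase that inactivates the complex, gave 0.05 ± 0.27 (0.28 ± 0.24 without 15EN replicate 3). All 4 genes had overlapping groups and adjusted p of 0.3 to 0.925 by limma. In DLAT the overlap came from VC replicate 3, at 9.11 beside 8.52 and 8.54 in the other VC arrays and 8.88 to 9.26 in 15EN.

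**Figure D4:**
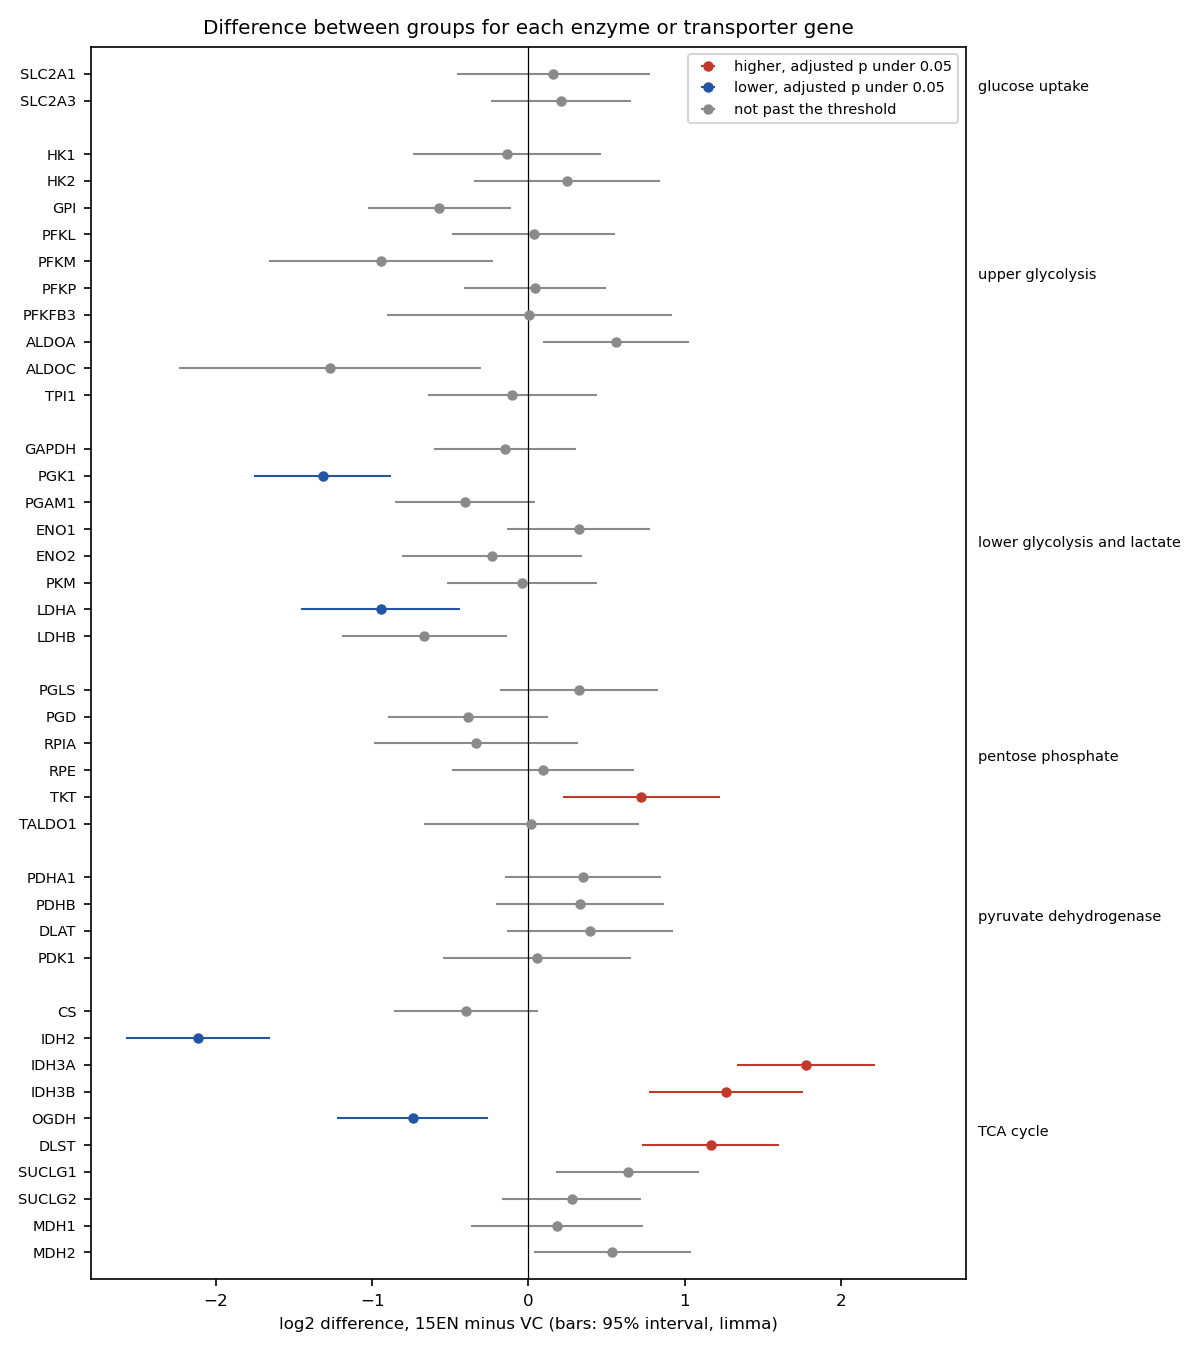
Points are log2 differences, 15EN minus VC, with 95% intervals from limma for the 40 genes by arm (red higher, blue lower, grey not past the threshold, all as deposited). The widest changes are in the TCA cycle, from -2.11 for IDH2 to 1.78 for IDH3A, and the whole scale moves up by 0.87 when arrays are scaled to the hybridization controls, which takes GAPDH to 0.72, PKM to 0.83, HK1 to 0.73, TPI1 to 0.77 and OGDH to 0.13.

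The TCA cycle had 3 genes that rose and 2 that fell among 10 (30% and 20%, against 12.3% and 9.09% of all genes). The arms were not tested as sets. The windows before the starts of the 3 genes that rose are shown (GRCh38.p14), at chr15:78149112-78149361 (plus strand) for IDH3A, chr20:2664217-2664466 (minus strand) for IDH3B and chr14:74881666-74881915 (plus strand) for DLST. Capitals mark GGGCGG, the GC box, on either strand.
IDH3A: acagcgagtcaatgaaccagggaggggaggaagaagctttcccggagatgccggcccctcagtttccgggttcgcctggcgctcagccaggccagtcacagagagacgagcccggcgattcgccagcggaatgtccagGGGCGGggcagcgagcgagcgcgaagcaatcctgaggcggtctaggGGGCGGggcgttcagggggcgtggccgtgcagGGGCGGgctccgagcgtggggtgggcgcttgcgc
IDH3B: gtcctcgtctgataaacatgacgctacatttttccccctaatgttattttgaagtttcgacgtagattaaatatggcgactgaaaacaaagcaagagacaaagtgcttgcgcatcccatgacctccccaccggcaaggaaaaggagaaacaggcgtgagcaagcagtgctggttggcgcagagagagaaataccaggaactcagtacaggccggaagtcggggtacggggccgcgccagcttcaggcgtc
DLST: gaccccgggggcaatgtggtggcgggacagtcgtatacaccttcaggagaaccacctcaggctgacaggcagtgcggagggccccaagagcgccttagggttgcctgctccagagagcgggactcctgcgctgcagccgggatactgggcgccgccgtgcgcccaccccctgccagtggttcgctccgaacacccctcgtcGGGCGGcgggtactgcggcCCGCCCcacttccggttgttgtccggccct
IDH3A holds the GC box at 3 places, DLST at 2 and IDH3B at 0, so these letters are not common to the 3 windows. The box was present in 42.6% of RefSeq promoters, in 25 of the 38 matched genes (65.8%) and at 3 places in PGK1. The first share counts every entry of a gene and the second only its first entry, so they are not over like sets. It was in 4 of 7 called genes and in 21 of 31 not called. ACGTG was found in 0 of these 3 windows.

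Isocitrate is oxidized to 2-oxoglutarate in mitochondria by the NAD-linked IDH3, built of α, β and γ subunits, and by the NADP-linked IDH2. IDH3A, the catalytic α subunit, was 14.26, 14.44 and 14.36 in 15EN and 12.71, 12.49 and 12.54 in VC. The groups lay more than a full log2 unit apart. The mean rose from 12.58 ± 0.12 to 14.35 ± 0.09 (SD, n = 3), by 1.78 ± 0.20 (SE, limma adjusted p = 0.000362). Its β subunit gene IDH3B was 12.58, 12.20 and 12.75 in 15EN and 11.21, 11.16 and 11.36 in VC, higher in every 15EN array, and rose by 1.27 ± 0.22 (adjusted p = 0.00303).

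IDH2 went the other way. It was 8.60, 8.79 and 8.74 in 15EN and 10.69, 10.73 and 11.05 in VC, with each group tight and far from the other. The mean fell from 10.82 ± 0.20 to 8.71 ± 0.10 (SD, n = 3), a difference of -2.11 ± 0.21 (limma adjusted p = 0.000234), and 1.96% of all genes had a larger difference in size. Within arrays, IDH3A minus IDH2 was 3.91, 3.89 and 3.86 above its VC mean in 15EN replicates 1, 2 and 3, and between -0.26 and 0.26 of it in VC. This pair was chosen after the values were seen, and its separation follows from the 2 opposite calls. The calls of IDH3A, IDH3B and IDH2 held under every alternative that was run, with adjusted p of at most 0.00445, 0.0214 and 0.00324.

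The 2-oxoglutarate dehydrogenase complex is built of OGDH, DLST and the shared subunit DLD. As deposited, DLST rose and OGDH fell, the fall of OGDH turning to 0.13 when scaled to the hybridization controls, and DLD did not pass (limma adjusted p = 0.996). DLST, the succinyltransferase core, was 11.51, 11.55 and 11.62 in 15EN and 10.51, 10.28 and 10.38 in VC. The lowest 15EN array was about a log2 unit above the highest VC array, and the gene rose by 1.17 ± 0.20 (limma adjusted p = 0.00258, at most 0.0197 under any alternative). OGDH, the decarboxylase, was 11.63, 11.97 and 11.71 in 15EN and 12.28, 12.70 and 12.55 in VC, lower in every 15EN array, with a difference of -0.74 ± 0.22 (limma adjusted p = 0.0343). The OGDH call was lost without 15EN replicate 1 (-0.67, adjusted p = 0.11), VC replicate 1 (-0.86, 0.0501), VC replicate 2 (-0.64, 0.143) or VC replicate 3 (-0.72, 0.111), and after scaling to the hybridization controls the difference was 0.13 (0.647). DLST minus OGDH within arrays, which such a constant cannot move either, was 2.0, 1.70 and 2.03 above its VC mean in 15EN replicates 1, 2 and 3, against -0.31 to 0.35 in VC. This pair was chosen after the values were seen and carries no test. Its separation follows from the 2 opposite calls, and it does not show that OGDH fell. DLST minus DLD was 0.93, 1.33 and 1.24 above its VC mean in 15EN replicates 1, 2 and 3.

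In the other TCA steps the groups mostly did not overlap, but no gene passed. SUCLG1, the α subunit of succinyl-CoA ligase, was 9.14, 9.16 and 9.04 in 15EN and 8.68, 8.30 and 8.46 in VC. All 15EN arrays were higher, and the difference of 0.64 ± 0.21 lay just outside the threshold (limma adjusted p = 0.0512). It passed without 15EN replicate 3 (0.67, adjusted p = 0.0315) and when the dimmest tercile was left out (0.0381). It also passed after scaling to the hybridization controls (adjusted p = 0.000339). With any other array left out SUCLG1 did not pass (limma adjusted p from 0.0706 to 0.191). It also missed the threshold when arrays were blocked by replicate number (0.0621) and in quantile normalized data (0.0674). The same held with a trended robust prior (0.0733) and with the brightness trend taken out (0.0985). SUCLG2, the GTP-specific β subunit, gave 0.28 ± 0.20.

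CS, citrate synthase, which opens the cycle, was at 14.77 to 15.16 in 15EN and 15.30 to 15.46 in VC (-0.40 ± 0.21, limma adjusted p = 0.22). MDH2, the mitochondrial malate dehydrogenase that closes it, was at 13.98 to 14.18 in 15EN and 13.25 to 13.87 in VC (0.54 ± 0.23, limma adjusted p = 0.128). MDH1, its cytosolic counterpart, was the TCA gene whose groups overlapped (0.18 ± 0.25).

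**Figure D5:**
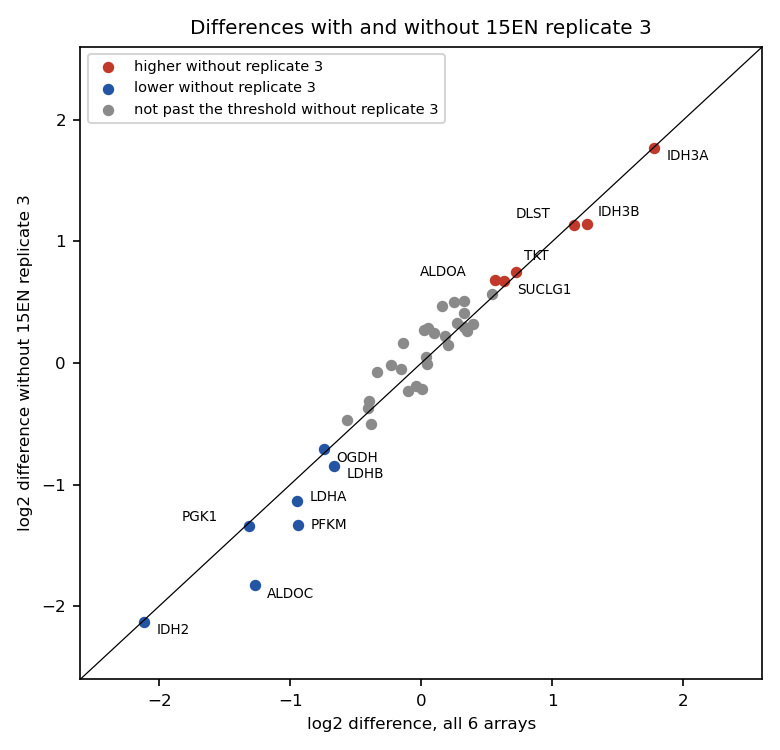
Each point is a gene, with its log2 difference over all 6 arrays on the horizontal axis and without 15EN replicate 3 on the vertical axis, coloured by the call without that array, and the line marks equal values. IDH2, IDH3A, PGK1 and DLST stay on the line, while ALDOC moves from -1.27 to -1.83 and PFKM from -0.94 to -1.33.

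Without 15EN replicate 3, all 8 calls were kept and ALDOC, PFKM, LDHB, ALDOA and SUCLG1 were added. The arm medians relative to the VC mean were 0.35, 0.55 and 0.32 for the TCA cycle in 15EN replicates 1, 2 and 3, and -0.23, -0.36 and -0.41 for lower glycolysis. In these arms replicate 3 gave the same sign as the others. For glucose uptake they were 0.25, 0.36 and -0.07 and for the pentose phosphate pathway 0.27, 0.33 and -0.18, where replicate 3 had the opposite sign.

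Other genes of the same pathways were read from a list of 72, of which 63 were measured. Of these, 8 were higher and 5 lower (12.7% and 7.94%, close to the 12.3% and 9.09% of all genes), with a median difference of 0.06. Regulators of glucose use were the largest among them. TXNIP, which promotes removal of glucose transporters from the cell surface, was 11.97, 12.43 and 10.88 in 15EN and 8.97, 8.86 and 8.69 in VC, a rise of 2.92 ± 0.35 (limma adjusted p = 0.000464). TIGAR, a phosphatase that lowers fructose 2,6-bisphosphate, rose by 2.86 ± 0.26 (limma adjusted p = 0.00019). For both genes 15EN replicate 3 was the lowest 15EN array, yet far above VC.

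Among transporters SLC2A13, a myo-inositol carrier of the same family, rose by 1.34 ± 0.28 and SLC2A12 fell by 1.45 ± 0.24, to a dim level in some 15EN arrays. BPGM, which makes 2,3-bisphosphoglycerate beside the PGK1 step, was 9.54, 9.21 and 9.88 in 15EN and 10.82 to 10.87 in VC (-1.31 ± 0.23, limma adjusted p = 0.00297). ENO3, the muscle enolase, was higher by 1.27 ± 0.40 (adjusted p = 0.0482), dim in VC and with overlapping groups, and lost its call without any array but 15EN replicate 3 (adjusted p from 0.0568 to 0.175). PRPS2, which activates ribose 5-phosphate for nucleotide synthesis, gave -0.996 ± 0.24 (limma adjusted p = 0.0159), and missed the threshold without 15EN replicate 2 (0.0525) or VC replicate 1, 2 or 3 (0.0575, 0.0633 and 0.0568). PDP1, the phosphatase that activates pyruvate dehydrogenase, was higher by 0.84 ± 0.25 (adjusted p = 0.0347), and kept the call only without 15EN replicate 3 among the fits that left out an array (0.0896 to 0.126 otherwise). It also missed the threshold in quantile normalized data (0.73, adjusted p = 0.0554) and with the brightness trend taken out (0.69, 0.076), as did ENO3 in the latter (1.24, 0.0525).

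Around the TCA cycle, IDH1, the cytosolic NADP-linked isocitrate dehydrogenase, fell like IDH2, from 12.91 to 13.18 in VC to 11.72, 10.56 and 11.77 in 15EN (-1.65 ± 0.32, limma adjusted p = 0.00485). ME1, the cytosolic malic enzyme, which makes NADPH, rose by 1.63 ± 0.27 (limma adjusted p = 0.00215). ACLY, which cleaves exported citrate for lipid synthesis, fell by 0.98 ± 0.21 (adjusted p = 0.0091). SDHD, a membrane anchor of succinate dehydrogenase, rose by 1.01 ± 0.25 (adjusted p = 0.0169) and GOT1, the cytosolic aspartate aminotransferase, by 0.89 ± 0.22 (adjusted p = 0.0148). SDHD no longer passed without 15EN replicate 1 (0.0626), 15EN replicate 2 (0.0541), VC replicate 2 (0.0537) or VC replicate 3 (0.0773), nor GOT1 without 15EN replicate 1 (0.0605), VC replicate 2 (0.0669) or VC replicate 3 (0.0556). Scaled to the hybridization controls, the falls of SLC2A12 (-0.58), BPGM (-0.44), PRPS2 (-0.13) and ACLY (-0.11) did not pass against 0.

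The remaining partners of these complexes were read after the other values had been seen. IDH3G, the γ subunit gene of IDH3, differed by 0.46 ± 0.25 (limma adjusted p = 0.239), and DLD had a 95% interval of -0.47 to 0.48. SDHA and SDHC, of the same enzyme as SDHD, gave 0.32 ± 0.22 (limma adjusted p = 0.372) and 0.01 ± 0.21 (0.982). SUCLA2 of succinyl-CoA ligase gave 0.20 ± 0.23 (0.608) and PDHX of pyruvate dehydrogenase 0.21 ± 0.21 (0.567). Within arrays, IDH3A minus IDH3G was 1.56, 1.14 and 1.25 above its VC mean in 15EN replicates 1, 2 and 3, and between -0.32 and 0.47 of it in VC.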

How the data were processed

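SH-SY5Y cells of 2 groups of 3 arrays, 15EN and VC, were profiled from 100 ng of total RNA per the labels' protocols. The deposited table gives a log2 signal for each probe set in each array, made by the authors with the Transcriptome Analysis Console per the submitters' processing notes. Its version, its normalization and the build used: not given in the sources used here. That the scale is log2 follows from the range of values, 2.20 to 18.82. Of 24351 probe sets, 2903 are controls and 17709 carry 1 symbol in the platform annotation. For genes with several, the brightest over the 6 arrays was kept, which left 17687 genes, and each of the 40 genes had 1 probe set. No filter was applied. The number of arrays limits the precision. Apart from the passage numbers in the titles, nothing in the labels says that samples came from separate cultures. The p-values therefore measure only how far these arrays scatter, which may be technical.

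The comparison of 15EN with VC used limma 3.58.1 (lmFit, eBayes, R 4.3.3, group only, two-sided, Benjamini-Hochberg over 17687 genes, threshold 0.05), after the procedure was tested on simulated data. Errors beside differences are standard errors and those beside means SDs. Genes past the threshold and their isoform partners are named with values, and of the other pathway genes those past it, at most 3 per arm and direction. The genes and lists were chosen with earlier results of these data known. Deviations from group means correlated at 0.229, 0.162 and 0.133 for same-numbered arrays and at -0.138 to -0.0165 for others. Titles tie numbers to passages, so the numbers pair the arrays. The main fit used the group only and left this pairing out. The replicate block keeps it, and with it PFKM and ALDOC passed as well. The replicate block, quantile normalization, median centring, scaling to 4 hybridization controls, removal of a loess brightness trend, omission of the dimmest tercile of genes, mean of probe sets, a trended robust prior and each array left out were run as alternatives. Differences between partner genes within an array were chosen after the values were seen and carry no test. In 250 bases before RefSeq starts (GRCh38.p14, first entry of a gene, 38 genes matched), matches on both strands are given for 5 motifs, namely ACGTG (the hypoxia response core), CACGTG (the E-box, which contains it), CCAAT (the NF-Y box), GGGCGG (the GC box) and TATAAA (the TATA box). The shares over all 35116 promoters count every entry of a gene. A further 3 motifs searched at first (the CRE, the antioxidant response element and the NRF1 site) were dropped for the way their letters are written, not for their matches, and are not reported.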

Additional observations from a re-analysis of the deposited data

How the results depend on the processing

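The calls of IDH2, IDH3A, IDH3B and DLST held under all 14 alternatives, and that of PGK1 under all but scaling to the hybridization controls. With the replicate number as a block, 4 of the 40 genes were higher and 6 lower (2415 and 1788 of all 17687), with PFKM and ALDOC added, and the block changed no other call among them. Scaling to the hybridization controls, which adds 0.87 to each log2 difference, gave 26 higher and 1 lower of the 40, and 12150 higher and 437 lower of all genes. The medians became 1.05 for glucose uptake, 0.82 for upper glycolysis, 0.55 for lower glycolysis, 0.92 for the pentose phosphate pathway, 1.21 for pyruvate dehydrogenase and 1.28 for the TCA cycle. After it HK1 (0.73), TPI1 (0.77), GAPDH (0.72) and PKM (0.83) passed as higher, and PGK1 (-0.45), LDHA (-0.08) and OGDH (0.13) no longer passed. Removal of a brightness trend gave 3 higher and 7 lower genes of the 40 (1806 and 1882 of all genes), a median of -0.21 for upper glycolysis and of 0.18 for pyruvate dehydrogenase. Quantile normalization gave -0.15 for upper glycolysis. The cause of these shifts other than the added constant was not tested. With 1 array left out, 3 to 6 of the 40 genes were higher and 2 to 7 lower, and of all genes 1301 to 3227 were higher and 970 to 2240 lower, in smaller fits. The median of lower glycolysis then ran from -0.40 to -0.25. Dim genes (SLC2A3 and ENO2 in all arrays, RPIA and TALDO1 in all VC arrays) limit what can be seen of their change.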
